A study of Homo sapiens with 24 samples.

Results

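SIRT1 knockdown LNCaP cells given dihydrotestosterone (DHT) were compared with control cells given vehicle, to describe which of the genes that knockdown sets apart from control come back to the control level under androgen and which stay away from it. The comparison was made from sample titles: 3 libraries of knockdown 10 with 1 nM DHT against 3 libraries of the non-targeting control (NTC) with vehicle, 6 of the 24 libraries of the series. LNCaP is an established, hormone-sensitive prostate cancer line. All cells carried a lentiviral short hairpin RNA, either the NTC hairpin or the SIRT1 hairpin labelled 10, delivered with virus at a multiplicity of 10; puromycin at 1 µg/ml selected the stable clones, which then grew with 0.5 µg/ml of it. Cells of both kinds grew for 48 h with fetal bovine serum, were moved for 24 h to charcoal-stripped serum, which is low in androgen, and were treated for a further 24 h. Further libraries help to read the comparison: knockdown 10 with vehicle (3), and 9 libraries (NTC with DHT, and NTC or knockdown 10 with DHT plus 10 µM of the antiandrogen enzalutamide) that shared the filter and the spread estimate of the fit and served as a check. Because the knockdown is a stable line, a difference between it and NTC cannot be told apart from a difference between clones, and because the comparison crosses hairpin and hormone it cannot by itself separate them.

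DHT binds the androgen receptor, a nuclear receptor that moves to chromatin and switches on secretory genes of the prostate, such as the kallikreins, as well as lipid synthesis. In androgen-dependent prostate cancer cells, androgen also sustains passage through the cell cycle, so removal of androgen lowers the transcripts of replication and mitosis. SIRT1 is a deacetylase that uses NAD and acts on histones and on transcription factors, the androgen receptor and p53 among them.

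Total counts were 28 to 32.3 M counts per library in NTC vehicle, 30.1 to 32.9 M in knockdown vehicle and 25.2 to 28.1 M in knockdown DHT. SIRT1 itself was at 56.1, 58.5 and 56.5 counts per M counts (CPM) in NTC vehicle, 17.6, 21.4 and 19.4 in knockdown vehicle and 13.1, 16 and 17.8 in knockdown DHT. Within knockdown cells SIRT1 was called lower with DHT than with vehicle, although the libraries of these groups overlapped. No knockdown library reached the NTC range, and under DHT SIRT1 was 3.64-fold lower than in NTC vehicle (log2 fold change -1.87, SE 0.094, adjusted p = 1.44e-10). The 12 luminal prostate markers summed to 2879 to 3606 transcripts per M transcripts (TPM) in knockdown DHT and 3035 to 3219 in NTC vehicle, and none was at 0. The 10 markers of basal cells or other lines summed to 20.9 to 37.7 and 19.4 to 47.3 TPM. Nearly all of it was VIM, and KRT17 was at 0 in every library of both groups. The 10 fibroblast markers summed to 7.94 to 10.2 and 8.08 to 10.7 TPM, with COL1A2 at 0. Most of this was COL1A1, with means of 5.23 and 7.36 TPM, and COL3A1, with 3.61 and 1.85. The 10 leukocyte and endothelial markers summed to 10.1 to 10.7 and 8.55 to 8.84 TPM, with CD3E at 0. Most of this was CD68, with means of 7.42 and 5.73 TPM. COL3A1 and CD68 were called higher in knockdown DHT than in NTC vehicle, and PDGFRB was called lower. PDGFRB was near the floor, with means of 0.077 TPM in knockdown DHT and 0.183 in NTC vehicle. The CD68 call was lost in 2 alternative runs and the PDGFRB call in 1. Knockdown DHT library 2 stood apart from the other 2 of its group, with a chi-square per gene of 38.6 and 22.4 against them, while libraries 1 and 3 differed by 12.5. The small non-coding RNAs RMRP and RPPH1 were at 7.57 and 7.07 CPM in that library and at most 2.95 and 1.99 CPM in the other 2. Knockdown vehicle library 2 had 9.36 and 29.6 CPM of them, against at most 3.28 and 3.74 in the other 2 of its group, and a chi-square per gene of 20.8 and 8.31 against those, which differed by 9.52. The results without these libraries are given beside the classes. The labels do not say whether libraries of a group came from separate cultures, so p-values measure the spread between these samples, which may be technical.

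Of 14558 genes tested, 5191 differed between knockdown DHT and NTC vehicle (35.7%), 2685 higher (18.4%) and 2506 lower (17.2%), by edgeR's quasi-likelihood test with Benjamini-Hochberg adjustment at 0.05. Which direction held more genes depended on the scaling and the fit: 2543 were higher and 2585 lower with the DESeq2 size factors, 2167 and 2900 with upper quartile factors, and 1607 and 1900 when the 6 libraries were fitted alone. For comparison, knockdown and NTC differed in 5038 genes in vehicle (34.6%; 15.5% higher and 19.1% lower), so the number of genes apart from control was about as large with DHT as without. Of those apart under DHT, 1497 were at least 1.5-fold away, 555 higher and 942 lower, and 728 were at least 2-fold away. The median log2 difference over all genes tested was 0.02. The 95% interval of the difference lay inside 1.5-fold for 9743 genes (66.9%).

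To say which genes came back, the genes called in vehicle with a gap of at least 1.5-fold were followed, 1463 in all, 1031 lower and 432 higher in the knockdown. The DHT response of knockdown cells, in which 3236 of all genes were called (22.2%; 13.3% higher and 8.92% lower), ran against the gap in 461 of them and along it in 71. A gene was counted as brought back when its DHT response was called against the gap and its 95% interval to NTC vehicle lay inside 1.5-fold, which held for 222 genes (15.2%), 189 with a lower and 33 with a higher level in vehicle. DHT carried 54 genes past the control level (overshot), and 66 moved toward it but were still apart (partly back). A far larger number, 742 (50.7%), stayed apart with no called DHT response, 71 moved further away, and 308 were not resolved at this precision. These classes come from 3 comparisons that share libraries, so their sizes are a description and were not tested. In the plot of the vehicle gap against the difference under DHT, the stayed-apart genes lie along the diagonal and the brought-back genes along 0. These positions follow from the class definitions and are not a separate result.

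**Figure D1:**
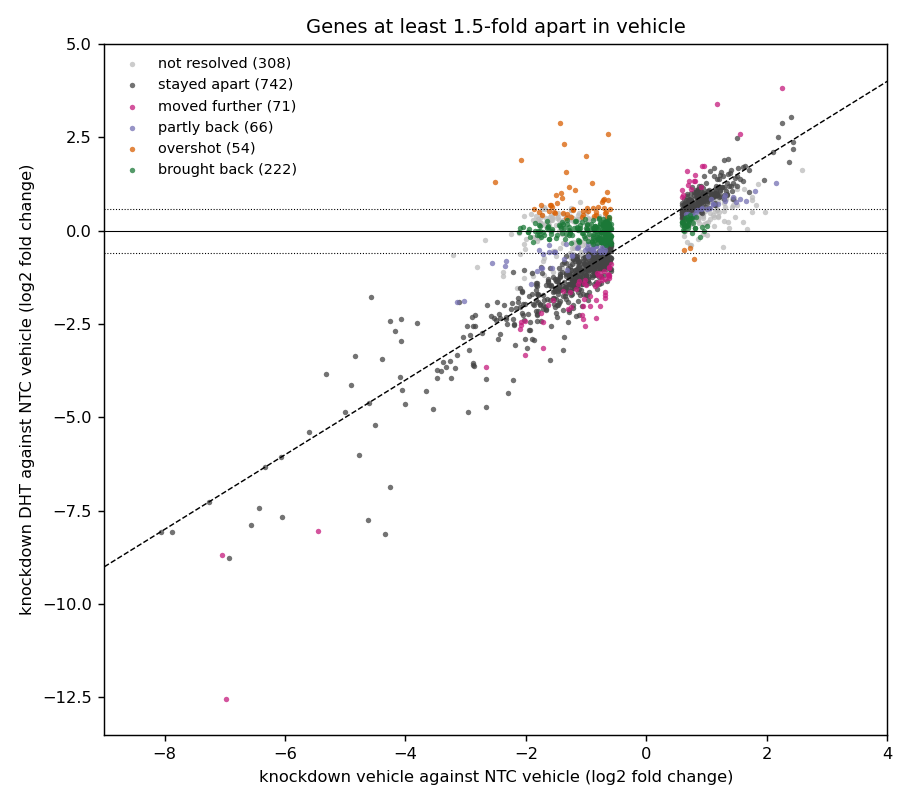
Each point is 1 of the 1463 genes with a called gap of at least 1.5-fold in vehicle; the horizontal axis is the log2 fold change of knockdown vehicle, and the vertical axis that of knockdown DHT, both against the same NTC vehicle libraries, with dotted lines at 1.5-fold. The 742 genes that stayed apart follow the dashed line of equal values, while the 222 brought-back genes lie between the dotted lines. The class definitions set both positions.

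Among the genes brought back, 43 of 222 were still called different from NTC vehicle, by less than 1.5-fold. The knockdown DHT and NTC vehicle libraries overlapped for 171. The class is defined by the interval between these same libraries, so the overlap partly follows from the definition and is not a separate result. The boundary was close for some: the outer end of the interval was 0.583 for BIRC5 and 0.584 for KNTC1, inside the limit of 0.585, and 0.587 for NUF2, just outside. The overshot class depended on single libraries, with 27 genes without knockdown DHT library 1, 91 without library 2 and 32 without NTC vehicle library 1, against 54 with all. Without knockdown vehicle library 3, 41 genes were partly back and 46 moved further. Without both knockdown libraries numbered 2, which stood apart, 207 genes were brought back, 162 of them among the 222, while 88 overshot, 43 came partly back and 680 stayed apart.

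Genes of mitosis rose with DHT, and 30 of the 52 with a gap were brought back. Of 55 G2/M genes tested, 52 were lower in knockdown vehicle than in NTC vehicle and 0 higher (median log2 fold change -1.62). In knockdown cells 52 rose with DHT and 0 fell (median 1.58), after which 3 were higher than NTC vehicle, 5 lower and 47 not called (median 0.07). The higher count was 0 without NTC vehicle library 1 or knockdown DHT library 1, 1 without NTC vehicle library 2, knockdown vehicle library 3 or knockdown DHT library 3, and 10 without knockdown DHT library 2, and the lower count was 8 without knockdown DHT library 1. Of the other genes with a gap, 2 overshot, 5 came partly back and 15 were not resolved, and none stayed apart. The median of the list against the NTC vehicle mean was 0.22, -0.27 and 0.12 in knockdown DHT libraries 1, 2 and 3, so library 2 was the lowest. It was -0.22, 0.10 and 0.09 in the NTC vehicle libraries, so knockdown DHT libraries 1 and 3 lay above that range and library 2 below it. In NTC cells given DHT the same medians were 1.45 to 1.76, above those of all 3 knockdown DHT libraries. In RNA from whole cultures, fewer cells in cycle and less RNA per cycling cell cannot be told apart.

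ASPM, which encodes a spindle pole protein, was at 10.2, 14 and 14 CPM in NTC vehicle, 2.94, 3.81 and 3 in knockdown vehicle and 12.9, 9.56 and 14.5 in knockdown DHT. The knockdown vehicle libraries lay below all others, and the remaining 2 groups overlapped (log2 fold change -0.04, 95% interval -0.50 to 0.41, adjusted p = 0.89). KIF20A, a kinesin of the late mitotic spindle, was at 11.2, 14.8 and 16.1 CPM in NTC vehicle, 3.67, 3.45 and 3.96 in knockdown vehicle and 14.3, 10.4 and 13 in knockdown DHT. It too overlapped with control under DHT (log2 fold change -0.16, 95% interval -0.52 to 0.20). PLK1, a kinase that drives entry into mitosis, was at 9.68, 10.8 and 12 CPM in NTC vehicle and 15.4, 9.71 and 11.8 in knockdown DHT (log2 fold change 0.18, 95% interval -0.13 to 0.48), against 4.01 to 4.62 in knockdown vehicle. TOP2A, the topoisomerase that untangles sister chromatids, CDK1, the kinase of mitosis, and FOXM1, a transcription factor of G2/M genes, had log2 differences of -0.13, 0.14 and -0.07 from NTC vehicle. BIRC5, which encodes survivin, sat at the edge of the class: its 3 knockdown DHT libraries, 20.7, 15.2 and 17.4 CPM, reached into the NTC range of 19.7 to 23.3 with 1 library, and without knockdown DHT library 1 its difference passed the test (-0.43, adjusted p = 0.0262, edgeR with Benjamini-Hochberg adjustment).

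A few mitotic genes came only partly back. CCNB1, which encodes cyclin B1, was at 42.6, 50.7 and 49.5 CPM in NTC vehicle, 22.2, 20.9 and 21.8 in knockdown vehicle and 40.6, 31.5 and 33.2 in knockdown DHT. No knockdown DHT library reached the NTC range (log2 fold change -0.44, SE 0.11, adjusted p = 0.00402). PTTG1, securin, which blocks the separation of sister chromatids until anaphase, was at 15.3 to 18.2 CPM in NTC vehicle and 9.67 to 12.5 in knockdown DHT (log2 fold change -0.56, adjusted p = 0.00159). MAD2L1, a protein of the spindle checkpoint, and KIF14, a kinesin of cytokinesis, were also lower than NTC vehicle under DHT, with log2 fold changes of -0.38 and -0.87.

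Genes of DNA replication rose with DHT, and of the 28 with a gap 14 were brought back and 9 went past the NTC vehicle level. Of 52 G1/S genes, 48 were lower in knockdown vehicle (median -0.69), 50 rose with DHT in knockdown cells and 1 fell (median 0.94), and under DHT 25 were higher than NTC vehicle, 2 were lower and 25 were not called (median 0.29). The higher count was 16 without NTC vehicle library 1, 11 without knockdown DHT library 1, and 15 both in the fit of the 6 libraries and with limma on TPM, while the lower count was 0 to 2 throughout. Of the remaining genes with a gap, 1 was partly back and 4 were not resolved. The list's median was 0.45, 0.07 and 0.29 in knockdown DHT libraries 1 to 3 against -0.07, 0.01 and 0.05 in NTC vehicle. All 3 knockdown DHT values were above the NTC vehicle range, and that of library 2 was the lowest. In NTC cells given DHT the medians were 1.42, 1.28 and 1.37, above those of all 3 knockdown DHT libraries.

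UHRF1, which helps to copy DNA methylation at the replication fork, was at 17.2, 18 and 21.1 CPM in NTC vehicle, 4.44, 4.31 and 4.32 in knockdown vehicle and 23, 13.6 and 19 in knockdown DHT. The NTC libraries lay within the spread of the knockdown DHT libraries (log2 fold change -0.03, 95% interval -0.33 to 0.28, adjusted p = 0.906). DTL, part of a ubiquitin ligase that limits replication licensing, was at 13.3, 16.1 and 16.5 CPM in NTC vehicle, 3.52 to 3.89 in knockdown vehicle and 20.6, 12.2 and 16.4 in knockdown DHT, and overlapped with control (log2 fold change 0.09, 95% interval -0.25 to 0.44). RRM2, the small subunit of ribonucleotide reductase, which makes deoxynucleotides, went past control. It was at 31.2, 34.8 and 35.1 CPM in NTC vehicle, 11.9, 9.17 and 12.1 in knockdown vehicle and 68.7, 38.9 and 55.6 in knockdown DHT. All 3 knockdown DHT libraries were above the NTC range (log2 fold change 0.69, SE 0.16, adjusted p = 0.0027). ASF1B, a histone chaperone, was at 8.13 to 10.1 CPM in NTC vehicle and 11.2 to 15.5 in knockdown DHT (log2 fold change 0.51, adjusted p = 0.0077), a call lost without knockdown DHT library 1 (0.37, adjusted p = 0.0521). CDC45, a subunit of the replicative helicase, was also higher (0.68, adjusted p = 0.0154), a call lost without NTC vehicle library 1 (0.58, adjusted p = 0.0651) or knockdown DHT library 1 (0.50, adjusted p = 0.0828).

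Of 38 homologous recombination genes, 27 were lower in knockdown vehicle and 1 higher (median -0.51), 27 rose and 1 fell with DHT, and 8 were higher and 1 lower than NTC vehicle under DHT (median 0.16). Over all genes tested 18.4% were higher than NTC vehicle under DHT and 17.2% lower, so the higher count was near the share of all genes. The higher count was 3 without NTC vehicle library 1 or knockdown DHT library 1, 5 without knockdown DHT library 3, 15 without knockdown DHT library 2 and 4 in the fit of the 6 libraries, and the lower count was 2 without knockdown DHT library 1. EXO1, an exonuclease of mismatch and break repair, was at 8.33, 9.08 and 9.68 CPM in NTC vehicle, 1.97 to 2.34 in knockdown vehicle and 10.6, 7.24 and 10.9 in knockdown DHT, so the DHT libraries spanned the NTC range (log2 fold change 0.08, 95% interval -0.29 to 0.46). BRCA1, a repair and tumour suppressor gene, was at 22.7 to 23.6 CPM in NTC vehicle, 9.93 to 12.4 in knockdown vehicle and 26.9 to 39.4 in knockdown DHT. Its groups did not overlap (log2 fold change 0.54, SE 0.14, adjusted p = 0.00562).

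MYC, a transcription factor of growth genes, was at 154, 143 and 163 CPM in NTC vehicle, 98.8, 91.6 and 105 in knockdown vehicle and 173, 128 and 163 in knockdown DHT (log2 fold change 0.01, 95% interval -0.18 to 0.20). Of 40 MYC and ribosome biogenesis genes, 30 were lower and 0 higher in knockdown vehicle (median -0.37), 29 rose and 0 fell with DHT, and 3 were higher and 2 lower than NTC vehicle afterwards (median -0.0045). Without knockdown DHT library 1, 8 were lower, and without library 2, 7 were higher. NCL, nucleolin of the nucleolus, was at 761 to 846 CPM in NTC vehicle, 582 to 654 in knockdown vehicle and 668 to 945 in knockdown DHT. The knockdown DHT libraries spanned the NTC range.

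The promoters of 5 of these genes are shown because they differ in the short motifs known from cell cycle and androgen genes. The sequences are the 250 bases before the annotated start, from RefSeq on GRCh38.p14, whereas the counts were made on hg19, and for genes with several starts the first in the table was used. Capitals mark every match, on either strand, of the cell cycle homology region (TTTGAA), the CCAAT box (CCAAT), an E2F motif (TTCCCGC, or TTGGCGC, or TTCGCGC, or TTGCCGC) and 1 arm of the androgen response element (AGAACA), which is not the whole element. ASPM lies at chr1:197146670-197146919 on the minus strand, PLK1 at chr16:23678639-23678888 and DTL at chr1:212035498-212035747 on the plus strand, ASF1B at chr19:14136590-14136839 on the minus strand, and KLK3, an androgen-induced gene described next, at chr19:50854665-50854914 on the plus strand.
ASPM: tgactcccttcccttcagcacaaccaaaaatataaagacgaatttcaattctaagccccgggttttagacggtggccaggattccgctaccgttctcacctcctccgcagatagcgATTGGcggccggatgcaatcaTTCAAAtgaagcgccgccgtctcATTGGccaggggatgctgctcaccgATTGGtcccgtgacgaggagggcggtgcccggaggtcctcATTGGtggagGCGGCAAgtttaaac
PLK1: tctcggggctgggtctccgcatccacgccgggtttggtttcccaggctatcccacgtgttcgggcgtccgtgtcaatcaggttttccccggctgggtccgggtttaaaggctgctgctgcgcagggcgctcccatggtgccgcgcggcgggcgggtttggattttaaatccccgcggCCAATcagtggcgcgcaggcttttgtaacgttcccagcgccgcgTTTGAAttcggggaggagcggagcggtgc
DTL: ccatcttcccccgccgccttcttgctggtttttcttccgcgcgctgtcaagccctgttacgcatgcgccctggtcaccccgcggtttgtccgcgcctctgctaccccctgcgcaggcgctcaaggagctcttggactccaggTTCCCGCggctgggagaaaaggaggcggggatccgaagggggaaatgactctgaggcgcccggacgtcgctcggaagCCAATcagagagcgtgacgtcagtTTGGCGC
ASF1B: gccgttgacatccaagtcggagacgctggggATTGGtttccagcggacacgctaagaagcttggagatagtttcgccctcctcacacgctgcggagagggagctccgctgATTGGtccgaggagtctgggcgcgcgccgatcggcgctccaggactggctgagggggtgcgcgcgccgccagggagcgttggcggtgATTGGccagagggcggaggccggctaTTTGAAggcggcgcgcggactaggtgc
KLK3: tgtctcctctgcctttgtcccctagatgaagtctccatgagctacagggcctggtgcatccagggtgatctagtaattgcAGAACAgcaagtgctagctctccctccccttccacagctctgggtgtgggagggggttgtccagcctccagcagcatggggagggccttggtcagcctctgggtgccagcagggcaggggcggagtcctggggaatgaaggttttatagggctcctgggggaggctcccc

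ASPM, PLK1 and ASF1B hold a TTTGAA match and at least 1 CCAAT match, and ASPM also holds an E2F match 15 bases before the start. DTL holds E2F matches at 108 and 7 bases before the start and a CCAAT match at 31 bases. KLK3 holds an AGAACA match 170 bases before the start. Over the 300 bases from 250 before to 50 after the start, TTTGAA was in 68.1% of the 47 G2/M genes with an entry, 4.76% of the 42 G1/S genes and 15.4% of all 27305 promoters. The E2F motifs were in 34% of G2/M genes, 71.4% of G1/S genes and 13.1% of all. CCAAT was in 76.6%, 57.1% and 35.7%, and AGAACA in 8.51%, 4.76% and 14.9%. Of the androgen-induced genes, 46 of 61 had an entry, too few for a share, and 5 of these held AGAACA. Among all genes tested, 11112 of 14558 had an entry, also an incomplete set, and of these 9.74% held TTTGAA, 20.3% an E2F motif, 36.9% CCAAT and 9.25% AGAACA. Of the 24 brought-back G2/M genes with an entry, 19 held TTTGAA. A match is a description of these letters and not a site in use.

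Many androgen-induced genes ended above NTC vehicle. Of 61 tested, 27 were lower and 3 higher in knockdown vehicle (median -0.30), 45 rose with DHT and 3 fell (median 0.74), and under DHT 34 were higher than NTC vehicle, 7 lower and 20 not called (median 0.44), with 4 lower without NTC vehicle library 3. Of 16 with a gap, 8 overshot, 3 were brought back, 2 stayed apart and 3 were not resolved. KLK3, which encodes prostate-specific antigen, was at 24.2, 23.5 and 27.4 CPM in NTC vehicle, 6.46, 4.83 and 6.43 in knockdown vehicle and 111, 82.2 and 85.6 in knockdown DHT. No groups overlapped, and DHT left KLK3 3.72-fold above NTC vehicle (log2 fold change 1.89, SE 0.14, adjusted p = 2.53e-08), against a mean of 234 CPM in NTC cells with DHT. KLK2, a related secreted protease, was at 7.76, 4.95 and 7.33 CPM in NTC vehicle, 2.1 to 3 in knockdown vehicle and 62.2, 41.8 and 43.5 in knockdown DHT, 7.32-fold above NTC vehicle (log2 fold change 2.87, adjusted p = 7.25e-09). KLK4, another kallikrein, was 6.04-fold higher and AZGP1, a secreted zinc-binding glycoprotein, 3.97-fold higher.

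FKBP5, which encodes a chaperone of steroid receptors, behaved otherwise and came back: 53.7, 50.9 and 54.8 CPM in NTC vehicle, 34.8, 31.8 and 32.8 in knockdown vehicle and 79.5, 48.8 and 58.3 in knockdown DHT. Its libraries overlapped with control (log2 fold change 0.23, 95% interval -0.02 to 0.47, adjusted p = 0.14), but without knockdown DHT library 2 it was higher (0.38, adjusted p = 0.00702). TMPRSS2, a membrane serine protease, was at 54.1, 44.1 and 48.7 CPM in NTC vehicle and 79.9, 57 and 63.4 in knockdown DHT. Its groups did not overlap (0.44, adjusted p = 0.0104), though the call was lost without NTC vehicle library 2 (0.37, adjusted p = 0.057) or knockdown DHT library 1 (0.29, adjusted p = 0.0791).

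**Figure D2:**
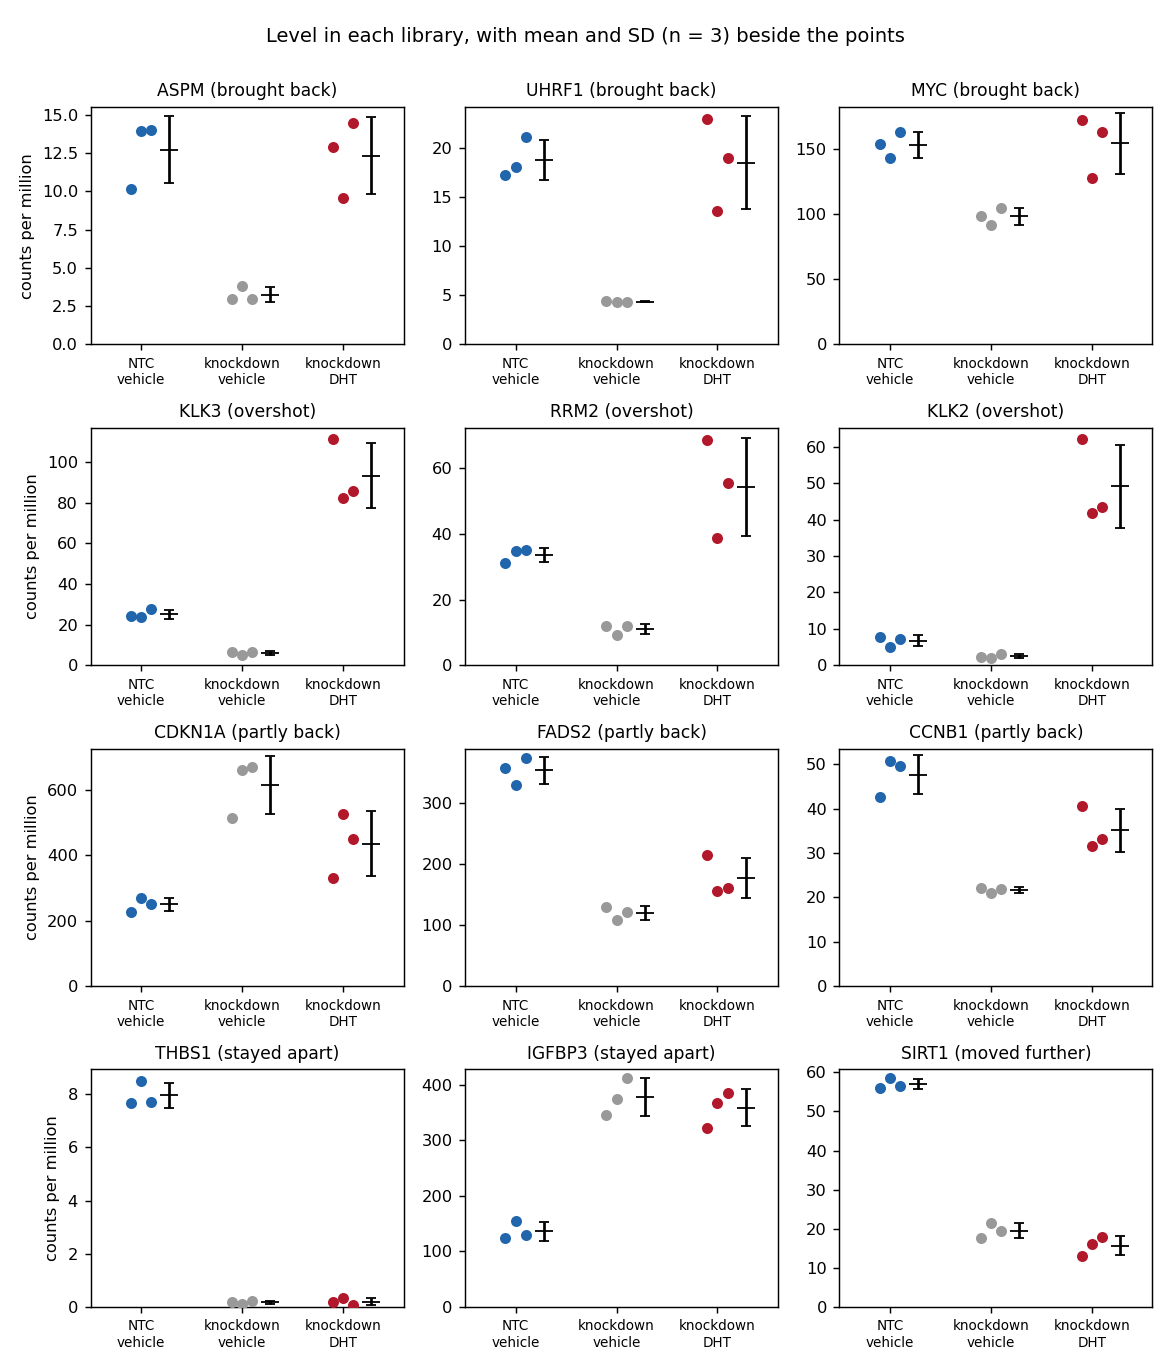
Counts per M counts (CPM) of 12 genes in the 3 libraries of each group, with the mean and SD (n = 3) as a bar beside the points; every vertical axis starts at 0. ASPM, UHRF1 and MYC return to the NTC vehicle level under DHT, while KLK3 and KLK2 rise above it. CCNB1, FADS2 and CDKN1A stop short of it, THBS1 and IGFBP3 stay away from it, and SIRT1 moves further from it.

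Lipid genes split. Of 24 cholesterol synthesis genes, 16 were higher and 1 lower than NTC vehicle under DHT (median 0.23), although none had a gap of at least 1.5-fold in vehicle. The higher count was 7 without knockdown DHT library 1, 10 without NTC vehicle library 3 or with limma on TPM, and 8 in the fit of the 6 libraries. Of 24 fatty acid synthesis genes, 8 were higher and 3 lower (median 0.05), among the higher ELOVL5, a fatty acid elongase, at 515 to 809 CPM against 255 to 267 (2.5-fold). The desaturases FADS1 and FADS2 went the other way. FADS2 was at 358, 329 and 373 CPM in NTC vehicle, 130, 108 and 122 in knockdown vehicle and 214, 155 and 161 in knockdown DHT, so DHT raised it without reaching the NTC range (2-fold lower, adjusted p = 7.46e-07). FADS1 stayed at 38.7 to 47.7 CPM against 81.7 to 85.2 in NTC vehicle, with no called DHT response (adjusted p = 0.14) and a log2 fold change of -0.96 (adjusted p = 2.54e-08).

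The plot of list medians shows these returns beside lists whose medians moved little.

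**Figure D3:**
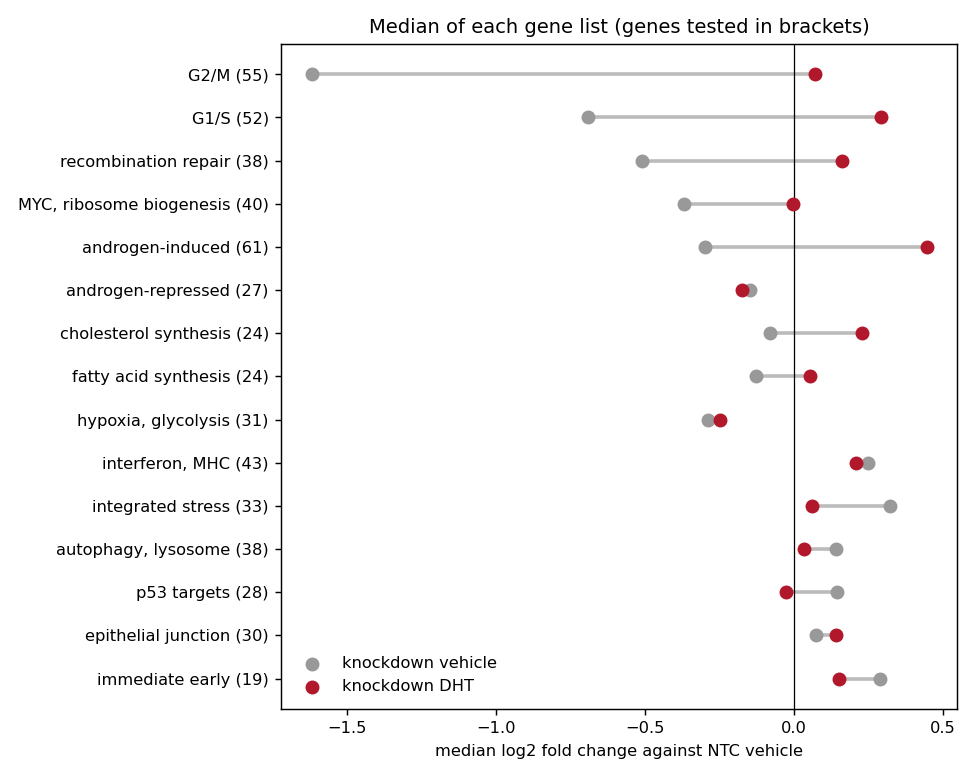
Median log2 fold change of each gene list against NTC vehicle, in knockdown vehicle (grey) and knockdown DHT (red), with the number of genes tested in brackets. The G2/M median moves from -1.62 to 0.07 and the androgen-induced median from -0.30 to 0.44, while the hypoxia median goes from -0.29 to -0.25 and the interferon median from 0.25 to 0.21.

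Most genes that knockdown set apart did not return. Of the 512 stayed-apart genes that were lower in vehicle, 320 were at least 2-fold lower than NTC vehicle under DHT, and of the 230 higher, 70 were at least 2-fold higher. TLL1, a secreted metalloprotease, was at 29.8, 46 and 49.9 CPM in NTC vehicle, 0.337, 0.362 and 0.627 in knockdown vehicle and 0.121, 0.181 and 0.213 in knockdown DHT, with every knockdown library far below control (log2 fold change -7.88, SE 0.95, adjusted p = 1.83e-09). THBS1, a matrix glycoprotein, was at 7.66, 8.52 and 7.69 CPM in NTC vehicle and 0.161, 0.326 and 0.0709 in knockdown DHT, against 0.0986 to 0.198 in knockdown vehicle. DSC3, a desmosomal cadherin, was at 13.7 to 17.5 CPM in NTC vehicle and 0.724 to 0.927 in knockdown DHT, 19.2-fold lower (adjusted p = 1.85e-12). SYT4, a synaptotagmin, was 5.23-fold lower, and ETV1, an ETS transcription factor, was 2.52-fold lower (42.6 to 60.8 CPM against 118 to 139). The imprinted gene PEG3 was at 99.7 to 176 CPM against 483 to 510, 3.98-fold lower. DDIT4L had 3 counts in knockdown DHT against 1006 in NTC vehicle, a ratio of 301 with an exact 95% binomial interval of 103 to 1463 for counting error only, and FCAMR had 2 against 452, a ratio of 203 with an interval of 55.9 to 1682.

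Among those higher, IGFBP3, which binds insulin-like growth factors, was at 124, 154 and 129 CPM in NTC vehicle, 345, 374 and 413 in knockdown vehicle and 322, 368 and 386 in knockdown DHT. The knockdown groups overlapped each other and not the control (log2 fold change 1.40, SE 0.093, adjusted p = 7.34e-09). TSPAN5, a tetraspanin, was 2.6-fold higher and GDF15, a secreted stress cytokine, 1.83-fold higher (144 to 195 CPM against 92.3 to 96.5). CDKN1A, the gene of p21, an inhibitor of cyclin-dependent kinases, came partly back: 228, 270 and 251 CPM in NTC vehicle, 513, 661 and 671 in knockdown vehicle and 331, 528 and 451 in knockdown DHT, still above control in every library (log2 fold change 0.81, SE 0.14, adjusted p = 0.000311).

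Of 31 hypoxia and glycolysis genes, 18 were lower and 3 higher in knockdown vehicle (median -0.29), and under DHT 12 were lower, 1 higher and 18 not called (median -0.25). Of the 6 with a gap, 4 stayed apart and 2 were not resolved. Without knockdown DHT library 1, 24 of the list were lower, and the 1 higher call was lost without any 1 NTC vehicle library or without knockdown DHT library 2 or 3. Among those lower was CA12, a carbonic anhydrase, at 24.2 to 25.4 CPM against 49.3 to 52.8 (2.07-fold lower). Of 43 interferon and MHC genes, 18 were higher and 2 lower in knockdown vehicle (median 0.25), and 18 higher and 3 lower under DHT (median 0.21), with 5 lower without knockdown DHT library 2. PSMB9, an immunoproteasome subunit, was at 2.9 to 4.89 CPM against 1.41 to 1.78, and HLA-C at 173 to 220 against 134 to 149, while UBE2L6, an enzyme of ISG15 conjugation, was lower (log2 fold change -1.68). The median of the integrated stress genes was nearer to 0 under DHT, with 14 of 33 higher and 2 lower in vehicle (median 0.32) and 6 higher and 5 lower under DHT (median 0.06). Both counts under DHT were near the shares of all genes tested, 18.4% higher and 17.2% lower. In vehicle those shares were 15.5% and 19.1%. The stress genes higher under DHT numbered 3 without NTC vehicle library 2 or 3, knockdown vehicle library 3 or knockdown DHT library 2, and 2 without knockdown DHT library 3. The stress genes lower under DHT numbered 2 without NTC vehicle library 1 and 3 without any 1 knockdown DHT library. Of 30 epithelial junction genes, 12 were higher and 5 lower under DHT (median 0.14), with 3 lower without NTC vehicle library 1 or 3 or knockdown DHT library 2. The lower count was near the share of all genes tested. CDH1, which encodes E-cadherin, was 1.55-fold higher (973 to 1022 CPM against 622 to 662).

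Some genes moved further from control with DHT. SLC22A3, an organic cation transporter, was at 74.6, 72.6 and 70.9 CPM in NTC vehicle, 0.52, 0.0986 and 1.02 in knockdown vehicle and 0.121, 0.217 and 0.177 in knockdown DHT, where it was 409-fold lower than in NTC vehicle (adjusted p = 7.76e-14). Its knockdown groups were both near the floor and overlapped, with knockdown vehicle library 2 below every knockdown DHT library, so its further move rests on low counts. H2AFJ, a histone variant whose reads may be shared with other histone genes, had 0 counts in knockdown DHT and 2282 in NTC vehicle, at least 683-fold lower on a floor of 3 counts over the group. Both folds give the distance from NTC vehicle and not the move with DHT. DDC, the decarboxylase that makes dopamine, is on the androgen-repressed list and was at 131, 130 and 134 CPM in NTC vehicle, 70.8, 56.1 and 61.6 in knockdown vehicle and 25.7, 28.7 and 28.3 in knockdown DHT. Each group lay below the one before it (log2 fold change -2.25, SE 0.087, adjusted p = 6.61e-12). Upward, GRIN3A, a glutamate receptor subunit, was at 2.76 to 4.6 CPM in NTC vehicle, 13.5 to 18.9 in knockdown vehicle and 45.2 to 53.1 in knockdown DHT (14.2-fold higher), and NPC1, which exports cholesterol from lysosomes, was at 131 to 140, 209 to 260 and 365 to 410 CPM (2.8-fold higher).

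A further 2225 genes with no call in vehicle were apart from NTC vehicle under DHT, 1246 higher and 979 lower. Most of these differences were small. Only 236 of the genes were at least 2-fold away, and the medians were 0.30 (higher) and -0.34 (lower) in log2 units. The set held 1725 genes without knockdown DHT library 1 and 2593 without knockdown vehicle library 2. Small gaps in vehicle can go uncalled, so these differences need not be new with DHT. The genes named next were all at least 2-fold away. TRPM8, a cold-gated ion channel on the androgen-induced list, was at 0.397 to 0.605 CPM in NTC vehicle and 2.72 to 5.72 in knockdown DHT (9.81-fold higher). ST6GALNAC1, a sialyltransferase, was at 1.77 to 2.79 and 16.1 to 21.3 CPM (7.81-fold higher). PLA2G2A, a secreted phospholipase, was at 36.2 to 45.8 and 11.1 to 12.3 CPM (3.34-fold lower), and CAMK2N1, an inhibitor of CaM kinase II, at 228 to 256 and 79.6 to 121 CPM (2.39-fold lower).

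The members were then followed in the 9 libraries whose levels entered no class, though these shared the filter and the spread estimate of the fit. Fitted without them, 4113 genes were apart from NTC vehicle, and 207 of the 222 brought-back, 657 of the 742 stayed-apart and 38 of the 66 partly-back genes kept their class. Knockdown was compared with NTC where both had DHT plus enzalutamide, a comparison in which 34.6% of all genes tested were called, 19.2% lower and 15.4% higher. Of the 189 genes brought back from a lower level, 182 (96.3%) were lower there, and of the 512 that stayed apart at a lower level, 470 (91.8%). All 33 genes brought back from a higher level were higher there, as were 202 of the 230 that stayed apart at a higher level (87.8%). In NTC cells, DHT was compared with DHT plus enzalutamide, where 29.2% of all genes were called, 16.6% higher and 12.6% lower with DHT alone. Of the 189 brought-back genes, 175 (92.6%) were higher with DHT alone, of the 51 genes that overshot from a lower level, 51, and of the 512 that stayed apart at a lower level, 30, with 64 lower. Of the 33 brought back from a higher level, 25 (75.8%) were lower with DHT alone. These 2 comparisons share the NTC libraries with DHT plus enzalutamide.

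**Figure D4:**
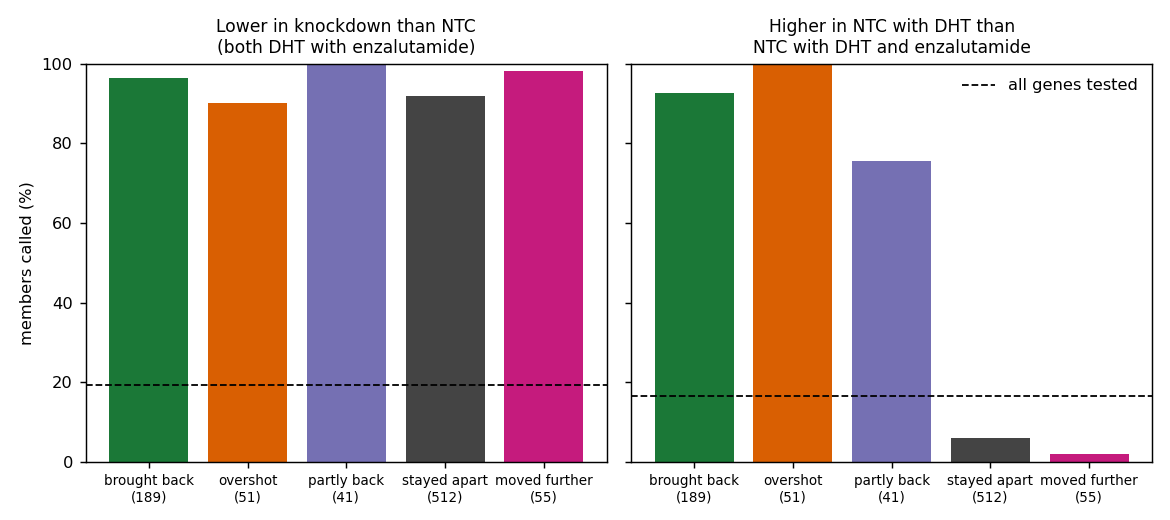
Percent of genes with a lower level in knockdown vehicle, by class, that were called lower in knockdown than in NTC cells with DHT plus enzalutamide (left) and higher in NTC cells with DHT than with DHT plus enzalutamide (right); dashed lines give the percent of all genes tested and brackets the number of genes. On the right, 92.6% of the brought-back genes and 5.86% of the stayed-apart genes were called.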

How the data were processed

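RNA sequencing of polyadenylated RNA (stranded mRNA kit, per the labels' protocols) was read from 1 table per library. CASAVA 1.8.2, RSEM 1.2.31 and hg19 are named per the submitters' processing notes; the aligner is not given in the sources used here. The authors deposited RSEM expected counts and TPM for 23207 gene symbols. The expected counts, rounded to whole numbers, entered every test, and the deposited TPM gave marker levels and 1 alternative fit. The 18 stripped-serum libraries (25.2 to 35.1 M counts per library) were fitted together with edgeR 4.0.16 on R 4.3.3 (TMM, filterByExpr by group, quasi-likelihood F test, two-sided, group means), leaving 14558 genes, with Benjamini-Hochberg adjustment within each comparison at 0.05. The common biological coefficient of variation was 7.79%. The 6 libraries in fetal bovine serum were not used here. Intervals are Wald intervals from the fit; they and the counting limits assume that reads are independent molecules. The fit and the classes were also run on simulated data in which a gap either closed fully or stayed. Genes that overshot, came partly back or moved further were not simulated.

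Members, classes and the 27 gene lists were chosen with earlier results of these data known. Named genes are SIRT1, KLK3, KLK2, TMPRSS2 and FKBP5; the 8 highest and 8 lowest called differences whose mean log2 CPM was 1 or more and whose replicates did not overlap; the 6 largest per class and direction at a mean log2 CPM of 3 or more; up to 4 called per list; and list members whose role is described, chosen after their values were seen. Some of these are not reported here. List medians per library used log2 of CPM with 0.01 added. Alternatives were another normalization, filter, tool (DESeq2 1.42.0, limma 3.58.1 on log2(TPM + 1)), set of libraries, threshold, a replicate block, and leaving out single libraries. Each of the 9 libraries of the 3 groups of the classes was left out in turn. The other 9 were not.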

Additional observations from a re-analysis of the deposited data

How the results depend on the processing

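Among the named genes, no called difference between knockdown DHT and NTC vehicle reversed direction in any alternative run. The other genes were not checked for this. Of 5191 genes apart, 3249 remained at an adjusted p under 0.01 (1603 higher, 1646 lower) and 728 at 2-fold or more (198 higher, 530 lower), and the fit of the 6 libraries alone called 1607 higher and 1900 lower. With the interval inside 1.2-fold, 10 genes were brought back, 101 partly back and 477 not resolved, and inside 2-fold, 388 brought back, 25 overshot and 24 partly back. With a gap of any size, 1158 were brought back, 2335 stayed apart, 277 moved further and 1123 were not resolved. With a gap of at least 2-fold, 67 were brought back, 31 overshot, 39 partly back, 392 stayed apart, 31 moved further and 170 were not resolved. The limma fit of TPM gave 26 overshot, 36 partly back, 408 stayed apart, 30 moved further and 93 not resolved, and the fit of 9 libraries 40 partly back. Leaving out each of the 9 libraries of the classes in turn gave 27 to 91 overshot, 41 to 69 partly back and 46 to 75 moved further. Without both knockdown libraries numbered 2, an alternative chosen after seeing the data, 88 overshot and 43 were partly back. The cause of these changes was not tested. Of the 222 brought-back genes, 144 kept their class with limma on TPM, 162 without both libraries numbered 2 and 170 to 198 without any 1 of the 9 libraries of the classes.

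Whether the replicate numbers pair the libraries is not given in the labels. Same-number correlations were over 0.1 for 2 of 3 pairs of the groups compared (0.0043 to 0.28), 7 of 9 of the 3 groups of the classes (up to 0.36) and 37 of 45 of the 6 groups fitted (up to 0.40), so not every pair met the criterion and no block was used. As a hint from the data, 10 of the 18 libraries correlated best with their own number in every other group, and on the third principal component the 6 libraries numbered 1 were above 0 and the other 12 below. With the number as a block, 6584 genes were apart, 109 partly back and 118 moved further. Over the named genes and all alternatives, 3253 differences stayed on the same side of the threshold, 81 lost the call, 9 gained it and 35 that were not called changed sign.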
